A study of Sus scrofa with 12 samples.

Results

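The interleukins, chemokines, tumour necrosis factor (TNF) family members and interferons, with their receptors, made up 156 of the 12734 genes that carried a platform symbol on 2 array designs used for pig blastocysts. They were chosen by symbol alone: names that begin with IL, CCL, CCR, CXCL or CXCR followed by a digit, or with TNF or IFN, leaving out IL6, IL6R, IL6ST and IL1B. The first array set measured 136 of them among 11938 genes, with 152 probes, and the second measured 91 among 4527 genes, with 131 probes. Of these genes 71 were on both designs, 65 on the first alone and 20 on the second alone.

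Early blastocysts of the pig (Sus scrofa), collected 5 days after insemination, were set against hatched blastocysts, collected at 5.5 days. The source names give in vivo development for the first set and only the stage for the second. A hatched blastocyst has left the zona pellucida, the coat that surrounds the early embryo. Every array carried RNA of both stages in different dyes, and each array set held 6 arrays, 3 with the hatched stage in Cy5 and 3 with the early stage in Cy5. The first set lay on slides 4 and 22 and the second on slides 8 and 20. Arrays are called here hatched 1 to 3 and early 1 to 3 after the stage in Cy5; the numbers follow the order of deposition and pair nothing. Breed, treatment, and the number of embryos or litters behind an RNA sample are not given in the labels. The p-values therefore speak for the scatter of the arrays alone, part or all of which can be technical.

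Each value is a deposited log2 ratio of the stages. The labels do not name the numerator, so genes are described by their side of that ratio, positive or negative, and nothing is said of which stage had more transcript. A ratio carries no level. In whole embryos fewer cells of a type and less RNA per cell cannot be told apart. Arrays of opposite orientation deviated from the mean in the same 3 pairs on both sets, with residual correlations of 0.36 to 0.73 on the first and 0.55 to 0.75 on the second. Values without 1 of these pairs, hatched 2 and early 1, are given beside each gene whose call they change. The other pairs were not left out in turn, and the pair was found from the same values. Every call gained without it had a ratio further from 0, by a factor of 1.36 (IL12B, first set) to 1.83 (IL11, first set). Those adjusted p-values show only how far a call rests on this pair, and are not evidence for an uncalled gene. The fit without hatched 2 and early 1 called 10 members on the first set and 8 on the second. It called 9.79% and 17.3% of all genes, against 4.76% and 11% with all arrays.

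Cytokines are secreted or membrane-bound proteins that carry messages between cells over short distances, and each acts on cells that display its receptor. Chemokines are the branch that directs cell movement through G protein-coupled receptors, TNF ligands act through receptors of the TNF receptor superfamily, and interferons signal through JAK kinases and STAT factors to induce antiviral genes. Around implantation these molecules are studied as signals between the embryo and the maternal tract, and the pig conceptus is known for secreting interferons when it elongates, which is later than the stages measured here.

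On the first array set 7 of the 136 genes passed an adjusted p of 0.05 (limma, Benjamini-Hochberg over all genes). That share, 5.15%, lay near the 4.76% of all genes called there. Positive ratios made up 5 of the 7 and negative ones 2, where 2.39% and 2.37% of all genes were called on those sides. The second set had 4 of 91 past it, a share of 4.4% where 11% of all genes were called. Of these 1 was positive and 3 were negative, beside 5.26% and 5.74% of all genes. The counts by class given below stand beside the same 4.76% and 11% of all genes. Without adjustment p lay under 0.05 for 16 genes on the first set and 11 on the second, or 11.8% and 12.1%, against 17% and 23.7% of all genes. The ratio kept 1 sign on all 6 arrays for 10 of the 136 and 6 of the 91, or 7.35% and 6.59%, against 9.23% and 15.2% of all genes. With limma's trend and robust settings no gene of the first set passed, members or others. Of the second set's calls CCR1 and CXCL14 remained, beside 7.53% of all genes. The trend was fitted on the mean ratio itself, the quantity under test, so that fit does not show how calls depend on signal. With the 6 arrays averaged into 3 residual pairs no member passed on either set, though 10 and 7 had an unadjusted p under 0.05. Of all genes 0 of 11938 and 4 of 4527 (0.0884%) passed in that fit. Their share at the unadjusted p was not computed there.

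Most of the family, like most probes of the arrays, had ratios near 0. The log2 ratio lay within 0.5 of 0 for 128 of 136 genes on the first set and 88 of 91 on the second. By single probes it did so for 141 of 152 and 125 of 131, beside 41053 of 43794 and 41473 of 45220 of all probes. The median absolute ratio was 0.07 on the first set, where it was also 0.07 over all genes, and 0.06 on the second against 0.09. On the first set 5 genes reached a ratio of 1 or more, all positive, which is 3.68% of the members where 0.846% of all genes reached it on that side. These were IL27RA, CXCR4, CCR1, IL12A and TNFRSF9. No member reached it on the second set, where 1.81% of all genes did so in either direction. Ratios above 0 made up 86 of 136 on the first set (63.2%, against 51.2% of all genes) and 44 of 91 on the second (48.4%, against 51.2%).

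**Figure D1:**
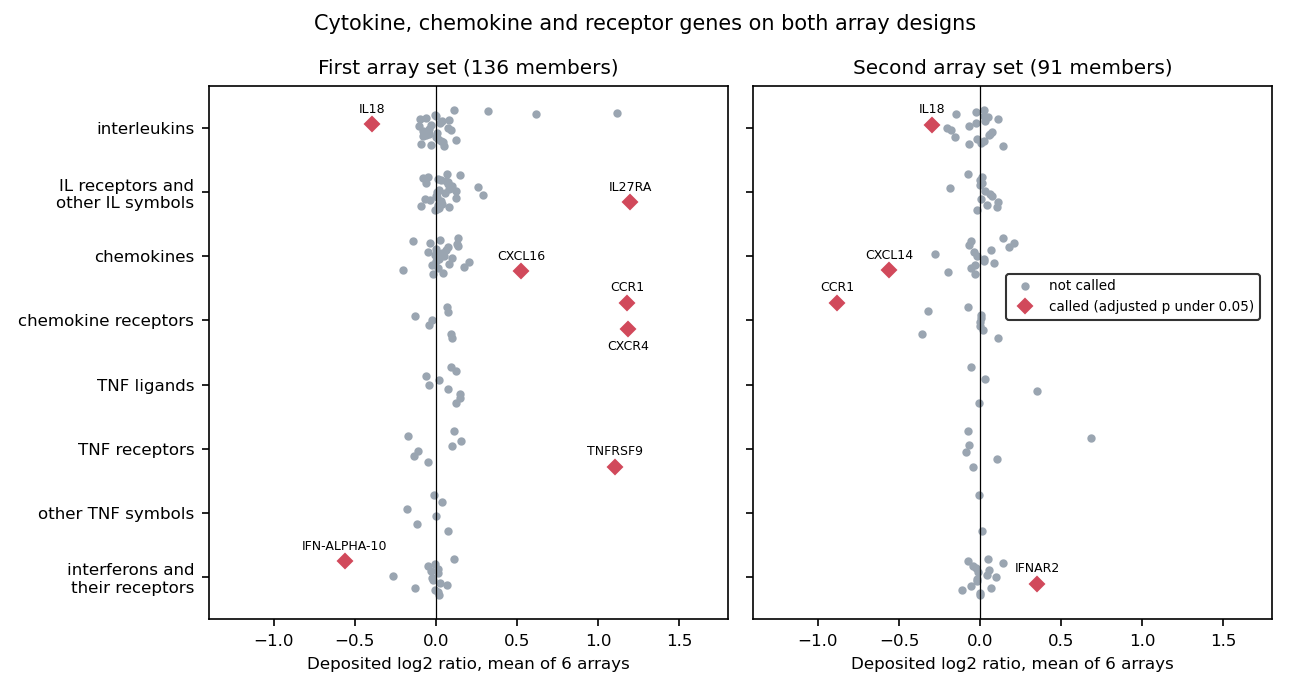
Log2 ratio of every member by class, with the first array set on the left and the second on the right. Each point is the mean of 6 arrays for 1 gene, and diamonds mark genes with an adjusted p under 0.05. Most points lie near 0, and the 5 genes at 1 or more are all on the first array set.

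Channel signals were not used here, so detection could not be scored. One property of the deposited values was examined after the values were seen: on each array 70.2% to 79.7% of the probes had exactly the same value as another probe of that array. Probes of cytosolic ribosomal protein genes, which are abundant in all cells, rarely did so. Among probes with a mean ratio within 0.5 of 0, 60 of 72 ribosomal probes on the first set shared their value on no array, against 2 of 141 probes of the cytokine family. The second set's counts were 132 of 144 and 3 of 125. At the other end, 97 of the 141 family probes on the first set and 95 of the 125 on the second shared their value on all 6 arrays, or 68.8% and 76%, against 55.3% and 69.2% of all probes in that range. Probes of leukocyte markers, genes of cells that a blastocyst does not itself form, shared on all 6 arrays in 25 of 34 and 34 of 41 cases. Of probes with a mean ratio at least 0.5 from 0, 7 of 11 in the family on the first set (63.6%) and 3 of 6 on the second (50%) shared no value, against 80.7% and 77.6% of all probes in that range. The 7 were the probes of IL27RA, CXCR4, CCR1, IL12A and TNFRSF9 and 2 probes of CXCL14, and the 3 were both CCR1 probes and 1 of TNFRSF12A. Nearer to 0, probes of CCL19 and CCL24 on the first set, and of IFNAR2, TNFSF12 and TNFRSF1A on the second, shared none either. What sets the sharing, and whether it bears on detection, was not tested.

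Among the ligands, IL18 was the one interleukin called, and the subunits of interleukin 12 had the largest ratios of that class on the first set. IL18, a cytokine of the interleukin 1 family that is made as an inactive precursor and cut by caspase 1, lay on the negative side in both sets. On the first set its ratio was -0.64, -0.55 and -0.53 on hatched 1 to 3 and -0.45, -0.25 and 0.04 on early 1 to 3. In the second it was -0.39, -0.24 and -0.01 on hatched 1 to 3 and -0.29, -0.58 and -0.26 on early 1 to 3. Thus 11 of 12 arrays were negative, the exception being early 3 of the first set, and only the first set separated the orientations. The mean ratio was -0.39 ± 0.07 (SE, n = 6 arrays) on the first set, with a limma adjusted p of 0.0258, and -0.30 ± 0.08 on the second, with 0.0499. The second call rested on every array, since leaving out any of the 6 ended it (adjusted p of 0.0579 to 0.16). For the first set, leaving out any array but early 3 ended it, with a highest adjusted p of 0.108. It was also lost with no dye term (0.057), within the 4-array slide (0.138), with a random block for the residual pairs (0.0621) and without hatched 2 and early 1 (0.0557). On the second set those last 3 settings gave 0.19, 0.0994 and 0.106, slide as a block gave 0.107 and the median of its probes 0.0572. Its receptor chains IL18R1 and IL18RAP read 0.09 ± 0.06 and 0.08 ± 0.07 on the first set and did not pass (adjusted p of 0.544 and 0.639).

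IL12A and IL12B encode the p35 and p40 subunits that pair into interleukin 12, a cytokine by which antigen-presenting cells drive T cells and natural killer cells to make interferon gamma. IL12A on the first set read 1.52, 0.57 and 2.25 on hatched 1 to 3 and -0.17, 0.96 and 1.56 on early 1 to 3. IL12B read 1.14, 0.39 and 1.29, then -0.04, 0.23 and 0.69. Both were highest on hatched 3 and lowest on early 1, and the orientations overlapped. Neither passed: the ratios were 1.12 ± 0.27 with an adjusted p of 0.0679, and 0.62 ± 0.14 with 0.0552. Without hatched 2 and early 1 they were 1.57 and 0.84, with adjusted p-values of 0.0054 and 0.0078. Leaving out hatched 2 alone also brought both past the threshold (0.0376 and 0.0222), as did leaving out early 1 for IL12A (0.0318). The same genes on the second set read -0.02 ± 0.08 and -0.15 ± 0.10. The receptor chains of interleukin 12, IL12RB1 and IL12RB2, stayed at -0.05 ± 0.06 and -0.08 ± 0.09 on the first set.

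The remaining interleukins did not pass. IL11, a cytokine needed for decidualization in the mouse, was outside the naming rule and is added after its values were seen. It read 0.51, -0.27 and 0.95 on hatched 1 to 3 and -0.15, 0.33 and 0.54 on early 1 to 3 of the first set, so hatched 2 and early 1 were its negative arrays. The ratio was 0.32 ± 0.16 with an adjusted p of 0.384, and 0.58 with 0.0215 without those arrays. IL1A, an alarm cytokine kept in cells until they are damaged, read -0.10 ± 0.05 and -0.20 ± 0.09 on the first and second sets, the latter becoming -0.33 with an adjusted p of 0.046 without hatched 2 and early 1. IL8, the neutrophil attractant now named CXCL8, read -0.03 ± 0.08 and -0.07 ± 0.10. IL10, which dampens inflammation, read 0.11 ± 0.08 and 0.02 ± 0.07. The T-cell growth factor IL2 read 0.08 ± 0.06 and -0.18 ± 0.10, IL4 0.03 ± 0.08 and 0.03 ± 0.06, and IL9 0.05 ± 0.06 and 0.14 ± 0.06. IL9 was positive on all 6 arrays of the second set with an adjusted p of 0.226. Over the class 1 of 30 interleukins was called on the first set and 1 of 21 on the second, IL18 in both.

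Of the interleukin receptors and related symbols 1 of 33 was called on the first set and 0 of 14 on the second. The called gene was IL27RA, the ligand-binding chain of the interleukin 27 receptor, which is best known from T cells. Its values were 1.56, 1.71 and 2.18 on hatched 1 to 3 and 0.03, 0.80 and 0.91 on early 1 to 3. All 6 were positive and the hatched-in-Cy5 arrays lay above the others without overlap. The ratio was 1.20 ± 0.13 with an adjusted p of 0.0048, the largest of the family on this set, and it stayed called without each array in turn (highest adjusted p of 0.0277). The dye effect had an adjusted p of 0.0661. The ligand IL27 was on the second design, at -0.15 ± 0.12 with an adjusted p of 0.537.

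Other receptors of the class had small ratios. IL1R1, the signalling receptor of interleukin 1, read 0.02 ± 0.07 on the first set. IL1RL1, the receptor of interleukin 33, read 0.29 ± 0.16 there and 0.03 ± 0.06 on the second. IL17REL, a gene related to interleukin 17 receptors, read 0.26 ± 0.09 with an adjusted p of 0.219. IL4R, the chain shared by the interleukin 4 and 13 receptors, read 0.08 ± 0.07 and 0.10 ± 0.07. IL31RA read 0.02 ± 0.07 and 0.11 ± 0.08. IL1RAPL2, a neuronal relative of the interleukin 1 receptors, read 0.06 ± 0.05 and -0.19 ± 0.06, negative on all 6 arrays of the second set with an adjusted p of 0.0939.

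Chemokine ligands gave 1 call of 25 on the first set and 1 of 17 on the second. CXCL16 is a chemokine anchored in the membrane that also acts as a scavenger receptor for oxidized lipoprotein. It read 0.34, 0.49 and 0.51 on hatched 1 to 3 and 0.54, 0.56 and 0.73 on early 1 to 3 of the first set, the narrowest range of the called genes there. All arrays were positive, and the hatched-in-Cy5 arrays were the lower ones. The ratio was 0.53 ± 0.06 with an adjusted p of 0.0041, and each fit without 1 array kept it (highest adjusted p of 0.0251). CXCR6, its receptor, read 0.10 ± 0.07 on the first set and 0.11 ± 0.11 on the second, with adjusted p-values of 0.542 and 0.646.

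CXCL16 had no probe under that symbol on the second design, but 2 probes there were named SR-PSOX, an older name of CXCL16 by their RefSeq accession. They fall outside the symbol rule and were examined separately. Probe 28689 read 1.44, 0.91 and 1.67 on hatched 1 to 3 and 1.17, 0.79 and 1.06 on early 1 to 3. Probe 37900 read 0.60, 0.67 and 1.22, then 0.53, 0.59 and 0.71. All 12 values were positive. Fitted as single probes their ratios were 1.17 ± 0.11 and 0.72 ± 0.10, with limma p-values adjusted over all probes of 0.00148 and 0.00546.

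CXCL14, a chemokine that epithelia make without stimulation, passed on the second set through 1 probe. That probe read -0.42, -0.09 and -0.83 on hatched 1 to 3 and -0.77, -0.48 and -0.77 on early 1 to 3. All 6 arrays were negative and hatched 2 was nearest to 0. The gene's ratio was -0.56 ± 0.10 with an adjusted p of 0.0142, and leaving out hatched 1 or early 3 ended the call (up to 0.0573), as did the fit within the 4-array slide (0.0994). On the first set the mean of its 3 probes was -0.20 ± 0.06 with an adjusted p of 0.16, but that mean joined probes on opposite sides. Probe 12371 stood at 1.11 ± 0.14, probe 17966 at 0.11 ± 0.08 and probe 39883 at -1.83 ± 0.12, with p-values adjusted over all probes of 0.00659, 0.605 and 0.000675. CXCL14 was the only symbol of the family with probes called on both sides, and its spread of 2.94 between probes was the widest on this set, followed by CCL5 at 0.56. None of the 3 probes carried an accession. By single probes 10 of the family's 152 were called on the first set (6.58%, against 4.64% of all probes) and 4 of 131 on the second (3.05%, against 6.12%).

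**Figure D2:**
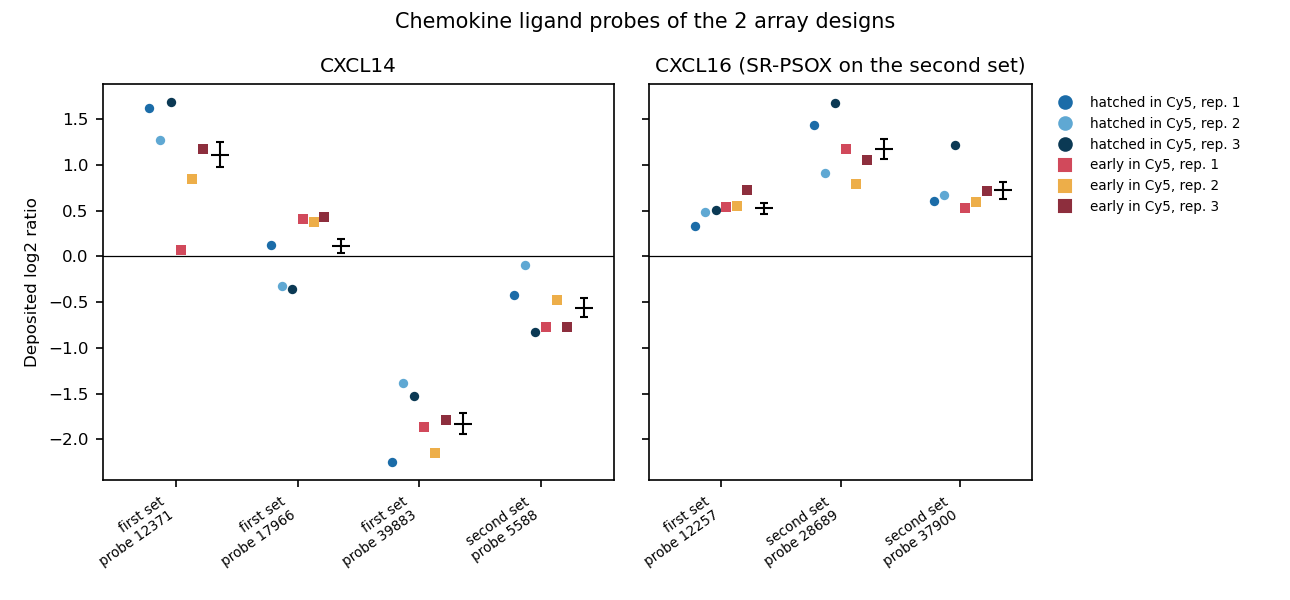
Log2 ratio on every array for the probes of CXCL14 (left) and of CXCL16, named SR-PSOX on the second design (right). Circles are arrays with the hatched stage in Cy5, squares those with the early stage in Cy5, and bars the limma ratio ± SE over 6 arrays. The CXCL14 probes of the first set span -1.83 to 1.11, whereas all 3 CXCL16 probes are positive on every array.

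No other chemokine passed as a gene. CCL2, which draws monocytes, read 0.14 ± 0.05 and -0.06 ± 0.09 on the first and second sets. CCL5, a ligand of CCR1, read 0.20 ± 0.08 and 0.03 ± 0.07. On the first set its ratio was 0.31 without hatched 2 and early 1, with an adjusted p of 0.0487, and 1 of its 3 probes there was called by itself, at 0.53 ± 0.11 with a p adjusted over all probes of 0.0436. CCL3L1, another ligand of CCR1, read 0.02 ± 0.05 and -0.28 ± 0.12. CCL20, the ligand of CCR6, read 0.08 ± 0.08 and 0.21 ± 0.08. CXCL12, the ligand of CXCR4 and a guide of migrating germ cells, read 0.01 ± 0.06 and -0.06 ± 0.08. The adjusted p-values of these 5 genes over all 6 arrays ran from 0.159 to 0.932.

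Among chemokine receptors 2 of 9 were called on the first set and 1 of 10 on the second, and CCR1 was called on both with opposite sides. CCR1 is a receptor for CCL3 and CCL5 known from monocytes and other leukocytes. The first design had 1 CCR1 probe, 18326, which carried no accession. It read 1.32, 1.06 and 1.90 on hatched 1 to 3 and 0.07, 0.99 and 1.75 on early 1 to 3. The second design had 2, both with the RefSeq accession of CCR1. Probe 37326 read -0.58, -0.85 and -0.82 on hatched 1 to 3 and -1.18, -0.85 and -0.98 on early 1 to 3. Probe 38934 read -0.89, -0.80 and -0.95, then -0.84, -0.92 and -0.93.

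The first design's probe was thus positive on all 6 arrays, and both probes of the second were negative on all 6. No single probe separated the dye orientations, whereas the mean of the second design's probes did so narrowly. By single probes the ratios were 1.18 ± 0.20, -0.88 ± 0.08 and -0.89 ± 0.07, with p-values adjusted over all probes of 0.0192, 0.00132 and 0.000624. The gene's ratio was 1.18 ± 0.21 on the first set (adjusted p of 0.0234) and -0.88 ± 0.06 on the second (adjusted p of 0.0004). The difference between the sets, first minus second, was 2.06 ± 0.24, with an adjusted p of 0.001 over the 3731 genes on both designs. Of those genes 109 were called on both sets, and 2 of the 109 (1.83%) lay on opposite sides, CCR1 being one. Over all 3731 genes these are shares of 2.92% and 0.0536%, beside 2 and 1 of the family's 71. The call on the second set held without each array in turn (highest adjusted p of 0.0042). The first set's call was lost without hatched 1, hatched 3, early 2 or early 3 (up to 0.0907), and with slide as a block (0.0602), while without hatched 2 and early 1 the ratio was 1.49. Whether the probes bind the same transcript was not tested.

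CXCR4, the receptor of CXCL12, behaved similarly on the first set. It read 1.60, 0.72 and 2.08 on hatched 1 to 3 and 0.05, 1.08 and 1.58 on early 1 to 3. All 6 values were positive, highest on hatched 3 and lowest on early 1. The ratio was 1.18 ± 0.23 with an adjusted p of 0.0329, which was lost without hatched 1, hatched 3, early 2 or early 3 (up to 0.119), with slide as a block (0.107) and within the 4-array slide (0.066). Its 3 probes on the second set had a mean of -0.36 ± 0.12 with an adjusted p of 0.105. They stood singly at -0.39 ± 0.22, -0.13 ± 0.10 and -0.56 ± 0.14, a spread of 0.43 that was the widest of the family on that design. Without hatched 2 and early 1 the gene's ratio there was -0.50 with an adjusted p of 0.0458. The sets differed by 1.54 ± 0.29, first minus second, with an adjusted p of 0.0115.

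**Figure D3:**
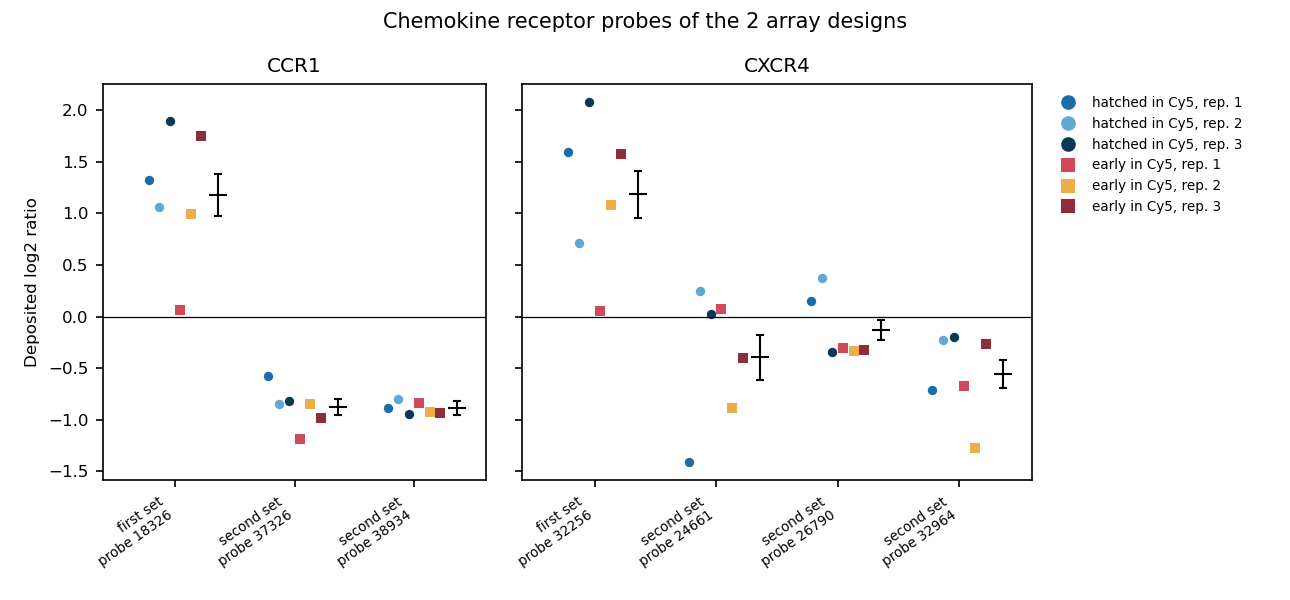
Log2 ratio on every array for the probes of CCR1 (left) and CXCR4 (right) on both designs, with symbols for arrays and bars for the limma ratio ± SE over 6 arrays. The CCR1 probe of the first set is positive on all arrays and the 2 probes of the second are negative on all arrays, at -0.88 and -0.89.

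The other chemokine receptors did not pass. CCR2, the receptor of CCL2, was measured on the second set alone, at -0.32 ± 0.09 with an adjusted p of 0.0759. It was negative on 5 arrays and positive on hatched 2, and without hatched 2 and early 1 the ratio was -0.44 with an adjusted p of 0.0158. Without hatched 2 alone the adjusted p was 0.0148. CCR9, a homing receptor of gut lymphocytes, read -0.13 ± 0.08 and 0.00 ± 0.08 on the first and second sets.

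In the TNF family no ligand passed, 0 of 9 on the first set and 0 of 4 on the second. TNF itself read 0.09 ± 0.05 and -0.06 ± 0.08. TNFSF10, which triggers death receptors and is also known as TRAIL, read 0.12 ± 0.07 and 0.03 ± 0.09. TNFSF8 read 0.15 ± 0.05 on the first set, positive on all 6 arrays with an adjusted p of 0.199, and TNFSF9 read 0.13 ± 0.07. TNFSF12, also known as TWEAK, read 0.35 ± 0.13 on the second set with an adjusted p of 0.134, and 0.53 with 0.0297 without hatched 2 and early 1.

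Of the TNF receptors 1 of 8 was called on the first set and 0 of 6 on the second. TNFRSF9, the costimulatory receptor 4-1BB of activated T cells, read 1.70, 1.44 and 2.01 on hatched 1 to 3 and -0.22, 0.69 and 0.997 on early 1 to 3. Early 1 was the only negative array, and the orientations did not overlap. The ratio was 1.10 ± 0.16 with an adjusted p of 0.0114. It was lost without early 2 or hatched 3, by a small margin (up to 0.0517), and the dye effect had an adjusted p of 0.0907.

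TNFRSF12A, the receptor of TNFSF12 and a growth-factor-inducible gene of epithelia, came next on the second set. It read 1.26, 0.04 and 1.36 on hatched 1 to 3 and 0.23, 0.45 and 0.79 on early 1 to 3. All 6 arrays were positive and hatched 2 was nearest to 0. The ratio was 0.69 ± 0.18 with an adjusted p of 0.0506, just short of the threshold, and 0.96 with 0.0035 without hatched 2 and early 1. It also passed without hatched 2 alone (0.0046), with no dye term (0.038) and with scaled arrays (0.0451). Its 2 probes stood at 0.60 ± 0.18 and 0.78 ± 0.20. The main TNF receptors had small ratios, TNFRSF1A at 0.10 ± 0.05 and -0.07 ± 0.09 on the first and second sets and TNFRSF1B at -0.09 ± 0.06 on the second.

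TNFRSF8, known as CD30, was the only gene of the family whose dye effect passed on the first set, 0.735% of the members against 0.972% of all genes. It read -0.28, -0.41 and -0.41 on hatched 1 to 3 and 0.31, 0.33 and 0.17 on early 1 to 3, for a stage ratio of -0.05 ± 0.05. On the second design the probes named TNFRSF4 and TNFRSF8 carry accessions that RefSeq gives to TNFSF4 and TNFSF8, the ligands of those receptors, so these symbols are uncertain there. The orientations did not overlap for 47 of 136 members on the first set (34.6%, against 28% of all genes) and 26 of 91 on the second (28.6%, against 22.2%).

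Of the other symbols that begin with TNF, TNFAIP3, TNFAIP6, TNFAIP8L2 and TNFAIP8L3 did not pass. TNFAIP3, also called A20, ends NF-kappa B signalling and read 0.04 ± 0.08 on the first set. TNFAIP6, a hyaluronan-binding protein of the cumulus matrix, read -0.18 ± 0.11 and -0.01 ± 0.08 on the first and second sets. TNFAIP8L2, a brake on immune cells, read -0.11 ± 0.07 and 0.01 ± 0.06, and TNFAIP8L3 read 0.07 ± 0.05 on the first set.

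**Figure D4:**
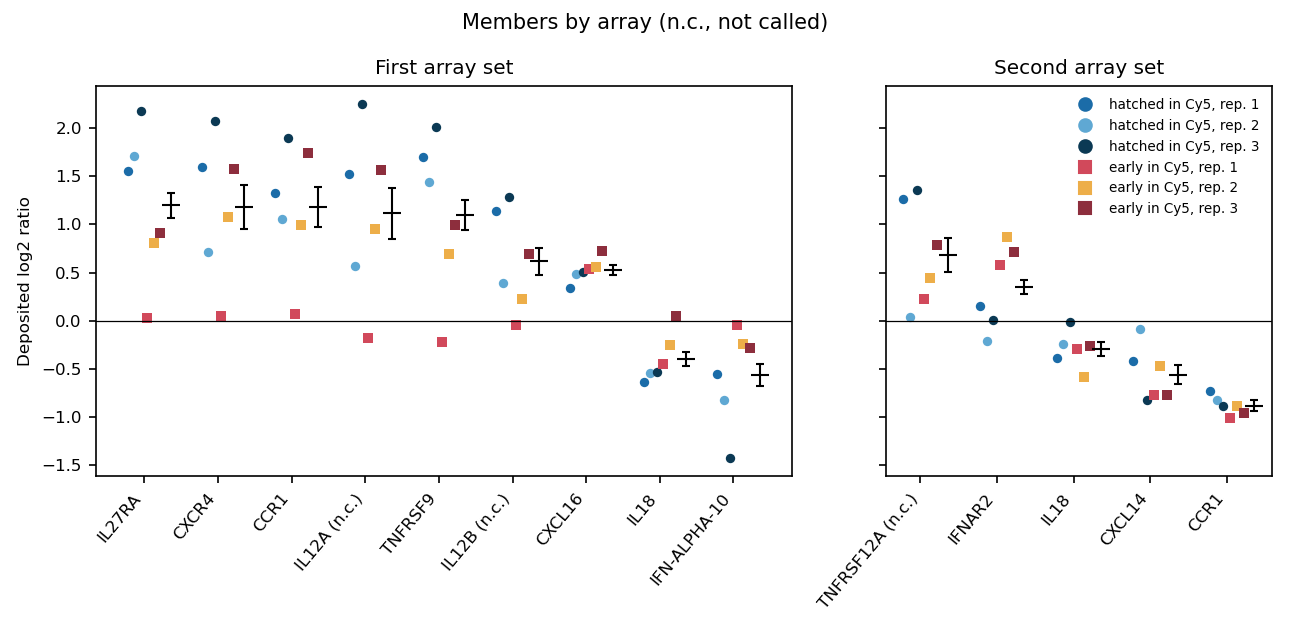
Log2 ratio on every array for the called genes of each array set, with IL12A and IL12B (first) and TNFRSF12A (second), which lay close to the threshold and are marked n.c. for not called. Circles are arrays with the hatched stage in Cy5, squares those with the early stage in Cy5, and bars the limma ratio ± SE. On the first set early 1 is the lowest array for the 5 genes at 1 or more, and hatched 3 the highest.

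Interferon genes gave 1 call of 16 on the first set and 1 of 17 on the second, from different genes. IFN-ALPHA-10, a type I interferon subtype, read -0.55, -0.83 and -1.43 on hatched 1 to 3 and -0.04, -0.24 and -0.28 on early 1 to 3 of the first set. All 6 were negative and the hatched-in-Cy5 arrays lay below the others without overlap. The ratio was -0.56 ± 0.11 with an adjusted p of 0.0354, lost without hatched 2 or any early-in-Cy5 array (up to 0.142). The call was also lost with no dye term (0.119), with slide as a block (0.0802), within the 4-array slide (0.058), with a random block for the residual pairs (0.0739) and without hatched 2 and early 1 (0.0589). The second set gave 0.05 ± 0.07, with the hatched-in-Cy5 arrays again the lower ones. The sets differed by -0.61 ± 0.14, first minus second, with an adjusted p of 0.033. Genes within the IFN-ALPHA group, or within the IFN-DELTA or IFN-OMEGA group, are close copies of one another. Which gene of its group such a probe reads is therefore uncertain.

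IFNAR2 encodes a chain of the receptor shared by type I interferons, and it was on the second design alone. It read 0.15, -0.21 and 0.01 on hatched 1 to 3 and 0.58, 0.87 and 0.71 on early 1 to 3. Only hatched 2 was negative, and the early-in-Cy5 arrays lay above the others without overlap. The ratio was 0.35 ± 0.07 with an adjusted p of 0.0209, and the dye effect had an adjusted p of 0.11. The call was lost without hatched 1, hatched 3, early 2 or early 3 (up to 0.0849), with no dye term (0.18), with slide as a block (0.0639) and within the 4-array slide (0.0899).

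The partner chain IFNAR1 read -0.02 ± 0.06 on the second set. Type II genes had small ratios as well. IFNG, or interferon gamma, read 0.00 ± 0.06 and -0.11 ± 0.06 on the first and second sets. Its receptor chain IFNGR1 read 0.01 ± 0.09 and 0.00 ± 0.05, and IFNGR2 read 0.00 ± 0.09 on the second. The probes of IFNG and IFNGR2 shared their values with other probes on all 6 arrays, and whether any of these genes was detected is not known. IFN-DELTA-2, of a type I branch found in the pig, read -0.26 ± 0.09 and -0.05 ± 0.09, and on the first set -0.40 with an adjusted p of 0.0301 without hatched 2 and early 1. IFN-OMEGA-3 read -0.02 ± 0.09 and 0.10 ± 0.06, and IFNE, an interferon of the female reproductive tract in mouse and human, read -0.13 ± 0.08 and 0.07 ± 0.07. None of these passed over all 6 arrays.

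Across the 71 genes on both designs the ratio differed between the sets for 4, or 5.63%, near the 4.99% of all 3731 shared genes. These were CCR1, CXCR4, IFN-ALPHA-10 and IL12B, the last by 0.76 ± 0.18 with an adjusted p of 0.0361. The difference was lost in 9 of 12 fits without 1 array for IL12B (up to 0.0911) and in 6 of 12 for IFN-ALPHA-10 (up to 0.0845), and for both with no dye term (0.0534 and 0.198). CCR1 and CXCR4 kept theirs in all of these fits. Each of the fits took the arrays as independent, and none with residual pairs or slides was run for the difference. IL12A differed by 1.14 ± 0.31 with 0.0615, which did not pass. The ratio lay on the same side of 0 in both sets for 33 of the 71 (46.5%), against 61.6% of all shared genes. By platform symbol IL18 was the only member called on the same side in both, with the losses given above. Its probes, 21636 on the first set and 1316 and 19138 on the second, each shared their value with other probes on 5 of 6 arrays. Of all probes 29718 of 43794 and 33117 of 45220 shared theirs on 5 or more. Whether this bears on detection of IL18 was not tested. With RefSeq names, which join the SR-PSOX probes to CXCL16, CXCL16 was also called on the positive side in both. In that setting CXCL16 was a 5th gene whose ratio differed between the sets. With the median of a symbol's probes CXCL14 differed as well.

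**Figure D5:**
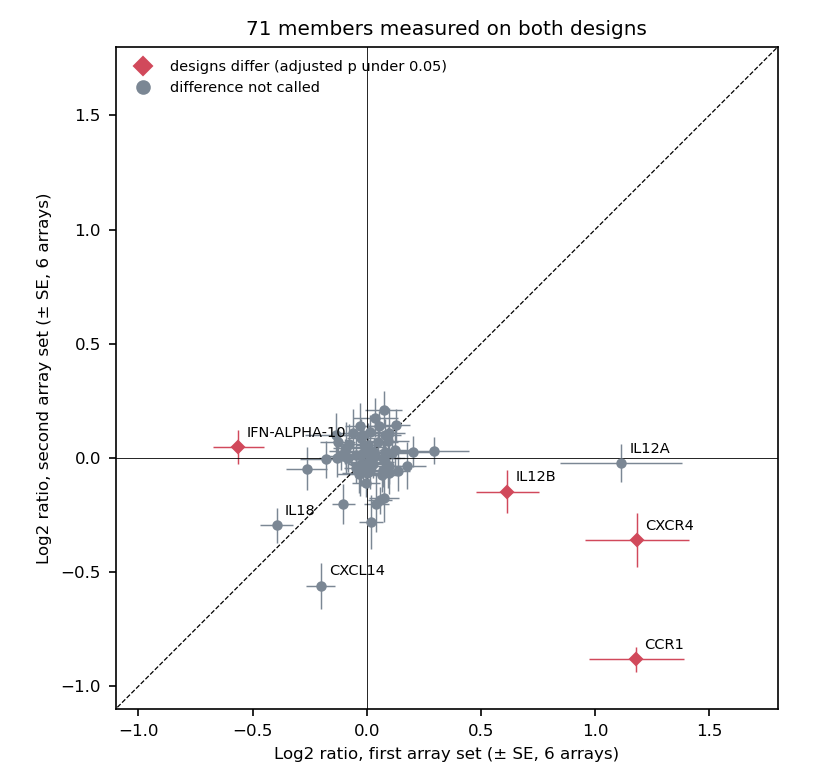
Log2 ratio on the first array set against the second for the 71 genes on both designs, with bars of ± SE over 6 arrays and a dashed line of equal ratios. Diamonds mark genes whose difference between the sets has an adjusted p under 0.05. CCR1 and CXCR4 lie at 1.18 on the first set and at -0.88 and -0.36 on the second.

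The 5 genes at a ratio of 1 or more on the first set shared their order of arrays, a feature that was noticed after the values were seen. IL27RA, CXCR4, CCR1, IL12A and TNFRSF9 were each lowest on early 1 and highest on hatched 3. Of all 101 genes at 1 or more on that set, 74 (73.3%) were lowest on early 1 and 59 (58.4%) were highest on hatched 3. The 5 probes carried no accession, as did 129 of the family's 152 probes there, so their names rest on the platform's symbols. On the second design 128 of 131 carried one. CCR1, CXCR4 and IL12A were measured on both designs; IL27RA and TNFRSF9 were on the first alone.

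Genes that work with these cytokines were examined as lists, each gene measured but not a member. Over all genes 4.76% were called on the first set and 11% on the second. Of cytokines and receptors with other names 0 of 32 were called on the first set and 2 of 27 (7.41%), both positive, on the second. The latter were KIT, the receptor of stem cell factor, at 0.57 ± 0.08 and EPOR, the erythropoietin receptor, at 0.50 ± 0.08. On the first set KIT and EPOR read 0.05 ± 0.05 and 0.10 ± 0.06. The list medians were 0.02 on both sets, beside 0.00 and 0.01 over all genes.

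JAK-STAT genes gave 1 call of 21 (4.76%) on the first set, negative, and 4 of 19 (21.1%) on the second, 2 on each side. STAT2, a transcription factor of the type I interferon response, was negative on all 6 arrays of both sets, at -0.53 ± 0.09 and -0.40 ± 0.07 (adjusted p of 0.023 and 0.0131). JAK1, the kinase used by most of these receptors, stood at -0.23 ± 0.05 on the second set. PIAS4, a SUMO ligase, and PTPN11, a phosphatase downstream of cytokine receptors, stood at 0.42 ± 0.08 and 0.44 ± 0.10 there. On the first set PIAS4 read 0.08 ± 0.06. The list medians were 0.00 and -0.02.

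NF-kappa B and TNF or interleukin 1 receptor signalling genes gave 1 positive call of 34 (2.94%) on the first set and 1 negative call of 21 (4.76%) on the second. These were IRAK2, a kinase of the interleukin 1 receptor complex, at 0.62 ± 0.12 and TAB1, which activates the kinase TAK1, at -0.32 ± 0.08. On the first set TAB1 lay on the other side, at 0.18 ± 0.11, and was not called. The medians were -0.01 and -0.06.

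Interferon-induced genes and interferon regulatory factors gave 2 positive and 1 negative call of 35 (8.57%) on the first set. On the second they gave 1 positive and 2 negative of 31 (9.68%). IFI30, a lysosomal thiol reductase induced by interferon gamma, was negative on all arrays of both sets, at -0.47 ± 0.06 and -0.39 ± 0.05. IRF3, the factor that starts interferon transcription after viral sensing, stood at 0.35 ± 0.06 and UBE2L6, the conjugating enzyme for ISG15, at 0.45 ± 0.10 on the first set. IRF3 read 0.11 ± 0.08 on the second and was not called there. On the second set USP18, which removes ISG15, stood at -0.30 ± 0.06, and ISG12(A) at 2.88 ± 0.69. ISG12(A) ranged from 0.23 on hatched 2 to 5.39 on hatched 1. The medians were 0.04 and 0.03.

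Markers of other cells were tested in the same fits, where 4.76% and 11% of all genes were called. Leukocyte markers gave 0 calls of 29 on the first set, with a mean over the list of -0.10 to 0.05 on the 6 arrays. On the second set 1 of 24 (4.17%) was called, FCER1G, the shared chain of Fc receptors, at 0.75 ± 0.09. On the first it read -0.20 ± 0.06 (adjusted p of 0.115). The list mean on the second set ran from -0.07 to 0.13. Markers of oviduct and uterine epithelium gave 0 of 15 and 2 of 10 (20%). The latter were UPTI, the uterine plasmin and trypsin inhibitor, at 2.97 ± 0.40 and STC1, a glycoprotein of uterine glands, at -0.49 ± 0.12. On the first set UPTI read 0.60 ± 0.16. STC1 lay on the other side there, at 0.33 ± 0.32, and neither was called. The mean over this list ran from 0.02 to 0.17 on the first set and 0.06 to 0.45 on the second. Whether other cells took part in the cytokine ratios was not tested beyond these values.

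Of the blastocyst's own lineage markers 4 of 14 (28.6%) were called on the first set and 3 of 11 (27.3%) on the second. The shares over all genes were 4.76% and 11%. GATA2, a trophectoderm factor, stood at 1.06 ± 0.15 and 1.30 ± 0.20, and KRT8, a keratin of the trophectoderm, at 0.76 ± 0.14 and 0.72 ± 0.16. KRT18 stood at 0.50 ± 0.11 on the first set. SALL4, a pluripotency factor, stood at -0.34 ± 0.07 on the first set and TFAP2C, a trophectoderm factor, at -0.71 ± 0.18 on the second. GATA2 and KRT8 were thus on the positive side in both sets. The other called markers were each called on 1 set alone. On the second set KRT18 read 0.67 ± 0.19 (adjusted p of 0.0612) and SALL4 -0.03 ± 0.08. On the first set TFAP2C read -0.11 ± 0.16.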

How the data were processed

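Early and hatched pig blastocysts were compared on 2 two-colour Agilent designs, 6 arrays each with dye swap. Per the labels' protocols, PicoPure extraction of total RNA was followed by 2 rounds of T7 amplification and chemical labelling. The deposited values are read as log2 ratios from their range; what the authors did to make them (scanner, background correction, normalization, log base, direction) is not given in the sources used here. Array medians lay between -0.0061 and 0.0105 and no value was missing. Arrays of opposite orientation correlated at -0.08 to 0.65 on the first set (6 of 9 pairs above 0) and -0.17 to 0.57 on the second (7 of 9), and arrays of one orientation at 0.31 to 0.73 and 0.31 to 0.67. Values were averaged as they stand, and turning the sign of one orientation was an alternative. With the dye term in the fit, that alternative repeats the test of the dye effect.

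Gene symbols came from the platform annotation in GEO (18121 of 43794 and 10290 of 45220 probes had 1 symbol). RefSeq names of Sscrofa11.1 were matched for 2658 of 4740 and 6055 of 10193 accessions and used as an alternative. Probes of 1 symbol were averaged per array. Each set was fitted over all genes with limma 3.58.1 in R 4.3.3 (lmFit, eBayes; terms for stage and dye), 2-sided, Benjamini-Hochberg at 0.05. The difference between sets was fitted over 12 arrays and 3731 shared genes, as if the arrays were independent; the labels do not say whether the sets share RNA. Errors are the fit's SE. The script was tested on simulated data.

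Genes were named by a rule: called members, absolute ratios of at least 1, the 3 smallest p-values per class and set, a preset list of well-known members, and up to 4 called genes per list. Receptors or ligands of called members were added after their values were seen. Members and lists were chosen with earlier results of these data known. Replicate numbers follow deposition; the same 3 residual pairs of opposite orientation (hatched 1 with early 2, hatched 2 with early 1, hatched 3 with early 3) emerged in both sets from the values, not the labels. Their number of arrays limits precision. No sequence or coordinate is given, since no build is named for the arrays.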

Additional observations from a re-analysis of the deposited data

Results flagged for a closer look

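The difference between the array sets passed for 4 genes. First minus second, it was 2.06 for CCR1, 1.54 for CXCR4, -0.61 for IFN-ALPHA-10 and 0.76 for IL12B.

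The probes named SR-PSOX on the second design, which the symbol rule left out, had ratios of 1.17 (probe 28689) and 0.72 (probe 37900), each positive on all 6 arrays.

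In 5 of the 85 sets of 6 arrays tested, 1 array stood far from the others by Dixon's test. Chance gives about 1 in 20. CCL3L1 read 0.22 on early 1 of the first set, where the other arrays ran from -0.07 to 0.01. On the second set CCR2 read 0.16 on hatched 2, against -0.53 to -0.31. IL8 read -0.62 on early 2, against -0.12 to 0.14. IFN-DELTA-2 read -0.60 on hatched 3, against -0.06 to 0.21, and TNFAIP6 read -0.42 on early 1, against 0.01 to 0.20. None of these 5 genes was called in that set.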

How the results depend on the processing

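The first set's 7 calls, beside 4.76% of all genes, became 4 with slide as a block (2.09% of all genes) and 4 within the 4-array slide (2.04%). They became 0 with limma's trend and robust settings (14 at an unadjusted p under 0.05) and 0 with averages of the residual pairs (10). No other gene of that set passed in those 2 fits either. Without single arrays 2 to 7 members were called, beside 1.65% to 5.12% of all genes. With early-in-Cy5 arrays turned in sign, the stage term repeats the test of the dye effect given above. By it 1 member passed, again TNFRSF8, beside 0.972% of all genes. The second set's 4 calls, beside 11% of all genes, became 2 with slide as a block (6.45% of all genes) and 1 within the 4-array slide (4.64%). They became 2 with trend and robust settings (7.53%). With pair averages 0 members passed (7 at an unadjusted p under 0.05), beside 0.0884% of all genes. With the sign turned 0 members passed (15), and no other gene did. Without hatched 2 and early 1 there were 8 calls (17.3% of all genes), and without single arrays 1 to 5 (5.7% to 12.8%). Shares of all genes at an unadjusted p were not computed for these settings. CCR1 alone was called in every fit of that set without 1 array. The 3 called CCR1 probes became 0 with pair averages, and 2 to 3 without single arrays. With the sign turned, which tests the dye effect, none of them passed. The 4 differences between sets, beside 4.99% of all shared genes, became 2 with no dye term (4.5%) and 2 to 5 without single arrays (2.71% to 6.54%). They became 5 with RefSeq names (4.9%), adding CXCL16, and 5 with the median of a symbol's probes (5.01%), adding CXCL14. With the sign turned, which compares the dye effects of the sets, none of the 4 passed and 1 other member did (TNFRSF8). CCR1 and CXCR4 passed in each of those 12 fits without 1 array. The causes were not tested.

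With the sign turned, the stage term measures what the dye term measures with the values as they stand. It is therefore not a second test of the stage ratio. For some called genes it lay on the other side of 0 from that ratio. On the first set CXCL16 stood at -0.081. On the second CCR1 stood at 0.069, CXCL14 at 0.11, IFNAR2 at -0.37 and IL18 at 0.081. CCR1 probes 37326 and 38934 stood at 0.13 and 0.011. No other alternative moved a called gene across 0. With the residual pairs as a random replicate block, which comes from the values and not from the labels, 5 and 3 members were called. The shares of all genes there were 3.79% and 8.24%. Median centring and scaling left 7 to 8 calls on the first set (4.78% and 5% of all genes) and 4 to 5 on the second (11.2% and 11.4%). RefSeq names gave 7 and 5 (4.75% and 11%), the latter adding CXCL16. The first set without hatched 2 and early 1 gave 10 calls (9.79% of all genes), and no other residual pair was left out. No paired analysis by replicate number was possible because the numbers follow the order of deposition. The trend setting used the mean ratio, and a filter on dim probes was not run, because no channel signals were used.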
